A study of Homo sapiens with 8 samples.

Results

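The genes described here are 10 components of the RNA interference and microRNA machinery, namely the Argonautes AGO1, AGO2, AGO3 and AGO4, the nucleases DICER1 and DROSHA, the double-stranded RNA-binding proteins DGCR8, TARBP2 and PRKRA, and the nuclear exporter XPO5. They were chosen by name, as those listed genes that the array annotation assigns to transcript clusters with a single gene symbol. The rule did not use their measured levels, but earlier results of these data were known when the genes were chosen. Each of the 10 had exactly 1 such cluster, a group of probes read out as a single value, and they were followed among 18417 genes with a single-symbol cluster. All 10 lay above background on all 8 arrays, where background was a log2 intensity of 5.23, the 95th percentile of the mean levels of 361 olfactory receptor genes.

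Expression was profiled on Affymetrix Human Gene 1.0 ST arrays in NCCIT, a pluripotent human embryonic carcinoma cell line. The groups were cells transfected with siRNA against TET1 (siTET1), TET2 (siTET2) or TET3 (siTET3) and cells given a non-targeting control siRNA (siNTC), with 2 arrays each. Each TET siRNA was a pool of several siRNAs against its gene, transfected transiently. Every array, siNTC included, thus came from cells given siRNA, which acts through the machinery studied here. Its uptake and its loading into Argonautes were not measured on these arrays. Arrays of untransfected cells were not analysed here, so the values compare siRNAs with each other and do not measure the effect of taking up siRNA. Nothing in the labels says that the 2 arrays of a group came from separate cultures, and p-values therefore measure only the spread between these arrays. In bulk RNA, fewer cells with a transcript and less of it per cell cannot be told apart.

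MicroRNAs are transcribed as long primary transcripts, from which the Microprocessor, formed by the ribonuclease DROSHA and its RNA-binding partner DGCR8, cuts out a hairpin in the nucleus. XPO5 carries the hairpin to the cytoplasm, where DICER1, assisted by TARBP2 or PRKRA, trims it to a short duplex. A strand of the duplex is loaded into an Argonaute, which pairs with target transcripts and recruits factors that repress translation and remove the poly(A) tail. Transfected siRNAs are delivered as short duplexes and enter the same pathway at the Argonaute loading step. Pluripotent cells are known for a small set of highly active microRNA clusters, and mouse embryonic stem cells that lack Dicer or Dgcr8 differentiate poorly.

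The 8 arrays had medians from 6.22 to 6.27 on the log2 scale. Over the genes tested, arrays correlated at r = 0.998 to 0.999 within groups, at 0.995 to 0.998 between depletions, and at 0.989 to 0.991 between a depletion and siNTC, so the siNTC arrays stood apart from all others. TET1 was at 9.91 and 9.87 in siTET1, 10.28 and 10.28 in siTET2, 10.93 and 11.05 in siTET3 and 10.62 and 10.53 in siNTC. TET2 was at 7.62 and 7.64 in siTET1, 6.95 and 6.92 in siTET2, 7.22 and 7.48 in siTET3 and 7.71 and 7.91 in siNTC. TET3 was at 7.25 and 7.12 in siTET1, 7.60 and 7.50 in siTET2, 6.23 and 6.66 in siTET3 and 7.74 and 7.30 in siNTC. Each target was thus lowest on the arrays of its own siRNA. The other TETs moved as well. Of the 3 TETs, 2 were called lower in siTET2 against siNTC, and 2 lower and 1 higher in siTET3 against siNTC. These groups therefore differed from siNTC in more than their target. Of the pluripotency markers with a single-symbol cluster, SOX2, LIN28A, DPPA4, SALL4 and L1TD1 were all above background on all 8 arrays, with log2 values from 10.92 to 12.68, and 6 of 9 measured lineage markers had a mean above it, while SOX17, TBXT and PAX6 were below it on all 8. Some of these markers moved by as much as the machinery genes. In the mean of the 3 depletions the lineage markers HAND1 (-0.88 ± 0.080, adjusted p = 1.40e-06) and THY1 (-0.48 ± 0.038, adjusted p = 4.47e-07) fell and GATA6 rose (0.37 ± 0.088, adjusted p = 0.00379), while the pluripotency markers L1TD1 (0.44 ± 0.028, adjusted p = 5.75e-08) and DPPA4 (0.14 ± 0.029, adjusted p = 0.00174) rose and SALL4 (-0.21 ± 0.032, adjusted p = 0.000157) and SOX2 (-0.13 ± 0.023, adjusted p = 0.000441) fell. Their part in the changes of the machinery genes was not tested.

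The question for the machinery was whether its transcripts differed between depleted and control cells. In siTET1, 4 of the 10 genes rose and 1 fell, where 34.3% of all genes tested were called at an adjusted p under 0.05 (15.6% higher and 18.7% lower). In siTET2, 5 rose and 1 fell, against 36.2% of all genes called (14.4% higher, 21.8% lower). In siTET3, 2 rose and 3 fell, against 36.1% of all genes called (13.8% higher, 22.3% lower). This balance turned to 4 higher and 2 lower with each array centred on the median of genes above background. In the mean of the 3 depletions, 5 rose and 2 fell, where 40.7% of all genes were called (16.5% higher, 24.2% lower). Lower calls made up 60.1% of all calls in siTET2, 61.9% in siTET3 and 59.4% in the mean, but 49.9%, 38.9% and 47.3% with the arrays so centred. The median log2 change of the 10 genes was 0.10 in siTET1, 0.14 in siTET2, 0.01 in siTET3 and 0.10 in the mean of the depletions, beside -0.03, -0.04, -0.02 and -0.03 over all genes tested. Changes were small. Only AGO4 and PRKRA in siTET2 passed the test with at least a 1.5-fold change (2 of 10 genes, where 6.16% of all genes did, beside 5.13% in siTET1 and 5.91% in siTET3). Both arrays of the depletion lay beyond both siNTC arrays for 8 of the 10 genes in siTET1, 8 in siTET2 and 7 in siTET3, where 65.8%, 67.7% and 64.1% of all genes did, so a lack of overlap between pairs of arrays was common. All 3 comparisons rest on the same 2 siNTC arrays, so any difference of those arrays from the rest enters each of them alike. The same 3 genes were called in the same direction in every depletion: AGO4 and DICER1 rose and PRKRA fell (2 and 1 of 10 genes, where 8.69% of all genes rose and 13.8% fell in all 3).

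**Figure D1:**
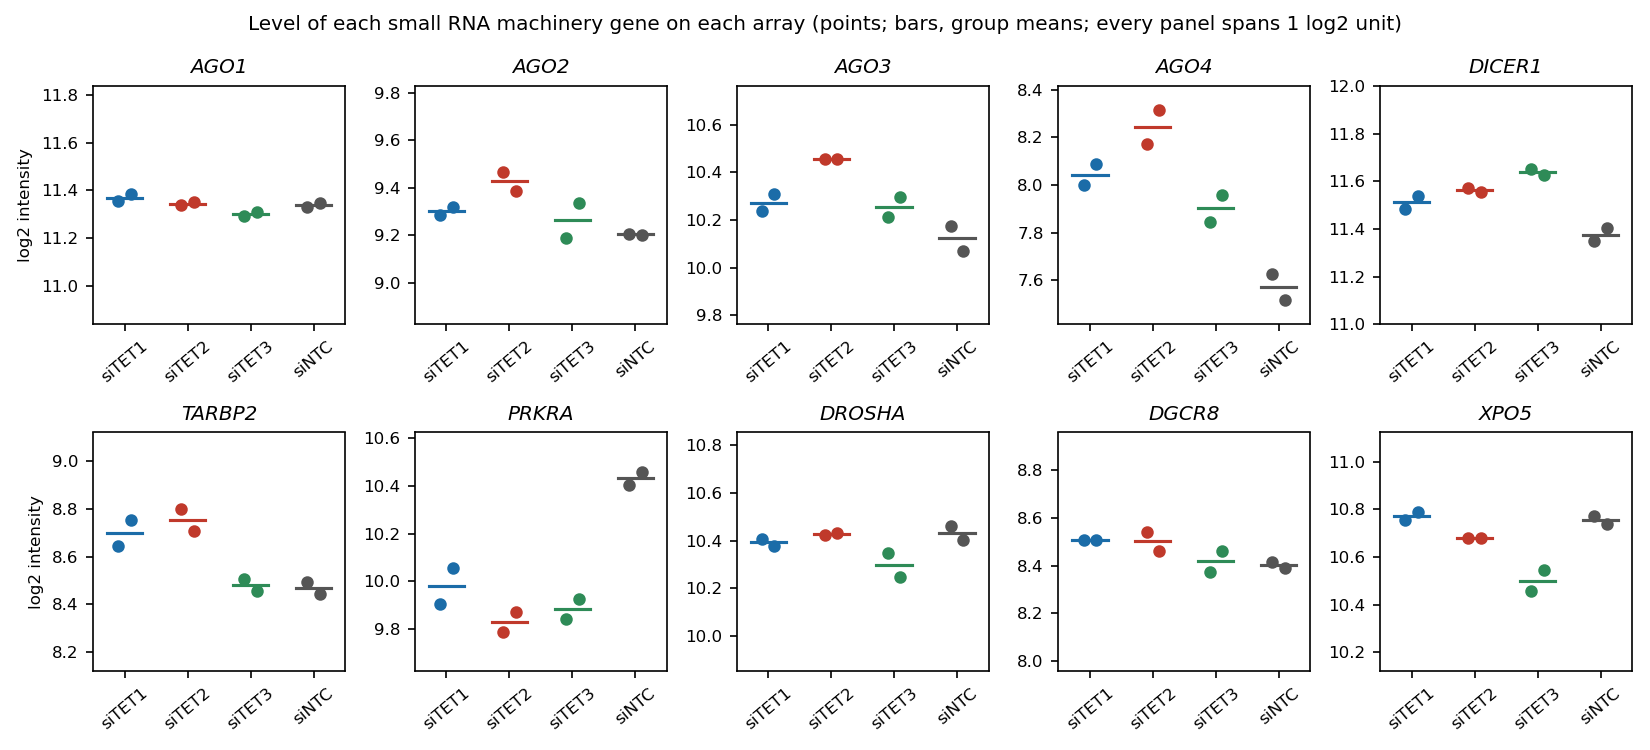
Log2 intensity (vertical axes, each spanning 1 log2 unit) of the 10 machinery genes on every array of siTET1, siTET2, siTET3 and siNTC (points, 2 per group; bars, group means). AGO4, AGO3 and DICER1 lay higher and PRKRA lower on all 6 depletion arrays than on the siNTC arrays, and XPO5 was lowest in siTET3.

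The Argonautes are the effectors that hold the small RNA, and in human cells AGO2 is the member with strong slicing activity. AGO4 changed most. It was at 7.998 and 8.088 in siTET1, 8.17 and 8.31 in siTET2, and 7.85 and 7.96 in siTET3, against 7.63 and 7.52 in siNTC. Every depletion array was thus above both siNTC arrays, as for 40.5% of all genes, whose 6 depletion arrays lay entirely above or below the siNTC arrays. AGO4 rose 1.59-fold in siTET2 (log2 change 0.67 ± 0.076, SE, n = 2 arrays per group, limma adjusted p = 1.44e-05), by 0.47 ± 0.076 in siTET1 (adjusted p = 0.000304) and by 0.33 ± 0.076 in siTET3 (adjusted p = 0.00394). In siTET2 the size of this change exceeded that of 95.8% of all genes. The 3 calls held under all 16 other fits tried, including those that left out 1 array. For the machinery genes, averaging over clusters, a replicate block or omitting an array outside the comparison left the change itself as it was. The same held for fits of only the arrays compared, without the intensity trend, or over genes above background alone. Such fits could alter only the estimate of the spread and the adjustment.

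AGO3 followed the same order at a smaller size. It was at 10.24 and 10.31 in siTET1, 10.45 and 10.46 in siTET2, and 10.21 and 10.30 in siTET3, against 10.18 and 10.07 in siNTC. The siTET2 arrays stood apart from all others, while the siTET1 and siTET3 arrays overlapped each other. AGO3 rose in siTET2 (0.33 ± 0.049, adjusted p = 0.000132) and in siTET1 (0.15 ± 0.049, adjusted p = 0.0314), and its change in siTET3 was 0.13 ± 0.049 (95% confidence interval 0.03 to 0.24, adjusted p = 0.0511). The siTET1 call was lost without siTET1 replicate 2 (0.11, adjusted p = 0.219), siNTC replicate 2 (0.10, adjusted p = 0.221) or either siTET2 array (0.15, adjusted p = 0.0546), and without the intensity trend in the fit (0.15, adjusted p = 0.114). The siTET3 value passed in 6 of 16 other fits: without siTET3 replicate 1 (0.18, adjusted p = 0.0304) or siNTC replicate 1 (0.19, adjusted p = 0.0214), with quantile normalization (0.15, adjusted p = 0.0178) or array centring (0.23, adjusted p = 0.000633), over genes above background alone (0.13, adjusted p = 0.0345), and with the neighbours' median subtracted (0.20, adjusted p = 0.00598).

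AGO2 was at 9.28 and 9.32 in siTET1, 9.47 and 9.39 in siTET2, and 9.19 and 9.34 in siTET3, against 9.21 and 9.20 in siNTC. Its siTET3 arrays lay on either side of the siNTC arrays. AGO2 rose in siTET2 (0.22 ± 0.057, adjusted p = 0.00741), a call that was lost without siTET2 replicate 1 (0.18, adjusted p = 0.0909). Its changes in siTET1 (0.10 ± 0.057, adjusted p = 0.223) and siTET3 (0.06 ± 0.057, adjusted p = 0.465) did not pass the test.

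AGO1 was the exception in the family. It was at 11.35 and 11.38 in siTET1, 11.34 and 11.35 in siTET2, and 11.29 and 11.31 in siTET3, against 11.33 and 11.35 in siNTC, so that no group stood far from another. None of its changes passed the test. The 95% confidence intervals were -0.04 to 0.10 in siTET1, -0.07 to 0.08 in siTET2 and -0.11 to 0.03 in siTET3, which leaves no room for a change of the size seen for AGO4 in the same depletion.

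AGO4, AGO1 and AGO3 are consecutive genes on chromosome 1 in the RefSeq annotation of GRCh38.p14, so the unequal response lies within a single locus. The median log2 change of the 20 tested genes around AGO1 (10 on each side, the other 2 Argonautes among them) was -0.001 in siTET1, 0.052 in siTET2 and -0.005 in siTET3. The neighbours outside the trio did not move as a block. CLSPN, next to AGO4, changed by 0.06, 0.09 and 0.20, and TEKT2, next to AGO3, by -0.09, 0.08 and -0.13 in siTET1, siTET2 and siTET3. Of the 20 tested genes around AGO4, AGO1 and AGO3 included, 3, 3 and 3 were called higher and 5, 4 and 3 lower in these depletions. In size, 1, 0 and 2 of them changed by more than AGO4. With the neighbours' median subtracted on each array, AGO4 still rose by 0.47, 0.66 and 0.36 in siTET1, siTET2 and siTET3 (adjusted p = 0.000215, 1.05e-05 and 0.00192) and AGO1 was at 0.01, -0.04 and -0.02.

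The promoter windows of these 3 neighbours, 250 bases before to 50 after the annotated start, are shown because the genes adjoin each other and responded unequally. They come from RefSeq (build GRCh38.p14), are written 5′ to 3′ on the strand of the gene, and carry in capitals each ACGTG, the core of the hypoxia response element, and each GGGCGG, the GC box, in either orientation (CACGT and CCGCCC on the other strand).
AGO4 (chr1:35807766-35808065, + strand): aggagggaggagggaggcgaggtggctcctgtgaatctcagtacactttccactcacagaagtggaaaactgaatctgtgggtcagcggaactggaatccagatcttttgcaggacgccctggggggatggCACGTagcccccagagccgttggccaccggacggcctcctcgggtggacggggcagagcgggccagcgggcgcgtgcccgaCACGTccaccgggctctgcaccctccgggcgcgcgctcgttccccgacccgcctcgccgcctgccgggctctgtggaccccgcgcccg
AGO1 (chr1:35882959-35883258, + strand): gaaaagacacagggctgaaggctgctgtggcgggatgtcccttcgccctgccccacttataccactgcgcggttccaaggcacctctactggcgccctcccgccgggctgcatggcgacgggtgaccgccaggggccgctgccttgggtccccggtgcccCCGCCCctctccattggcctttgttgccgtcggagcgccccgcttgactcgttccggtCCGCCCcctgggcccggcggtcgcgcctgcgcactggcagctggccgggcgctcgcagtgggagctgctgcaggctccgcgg
AGO3 (chr1:35930855-35931154, + strand): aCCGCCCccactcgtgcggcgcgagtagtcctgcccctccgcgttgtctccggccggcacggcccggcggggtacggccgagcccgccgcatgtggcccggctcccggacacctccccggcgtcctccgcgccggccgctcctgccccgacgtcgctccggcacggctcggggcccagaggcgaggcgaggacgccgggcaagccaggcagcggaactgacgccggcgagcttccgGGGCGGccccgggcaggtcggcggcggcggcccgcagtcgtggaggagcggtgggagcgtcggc
The AGO4 window held ACGTG at 2 places, whose first bases lie at -119 and -38 relative to the start, and no GC box. The AGO1 and AGO3 windows held no ACGTG and 2 GC boxes each, at -90 and -32 in AGO1 and at -249 and -14 in AGO3. Of 35116 promoter windows of this length, 21.4% held ACGTG and 45.0% the GC box in either orientation. None of the 3 held the E box CACGTG, which contains ACGTG and occurred in 7.26% of windows, or TATAAA (11.5%), and CCAAT (34.6%) occurred once, in AGO1 at -78. All 3 were rich in CpG, the dinucleotide at which the substrate of the TETs lies, with 29 in AGO4, 30 in AGO1 and 50 in AGO3 (more than in 75.8%, 77.6% and 98.7% of windows), against a median of 14. These matches describe the letters of the windows, and neither binding nor methylation was measured on these arrays.

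**Figure D2:**
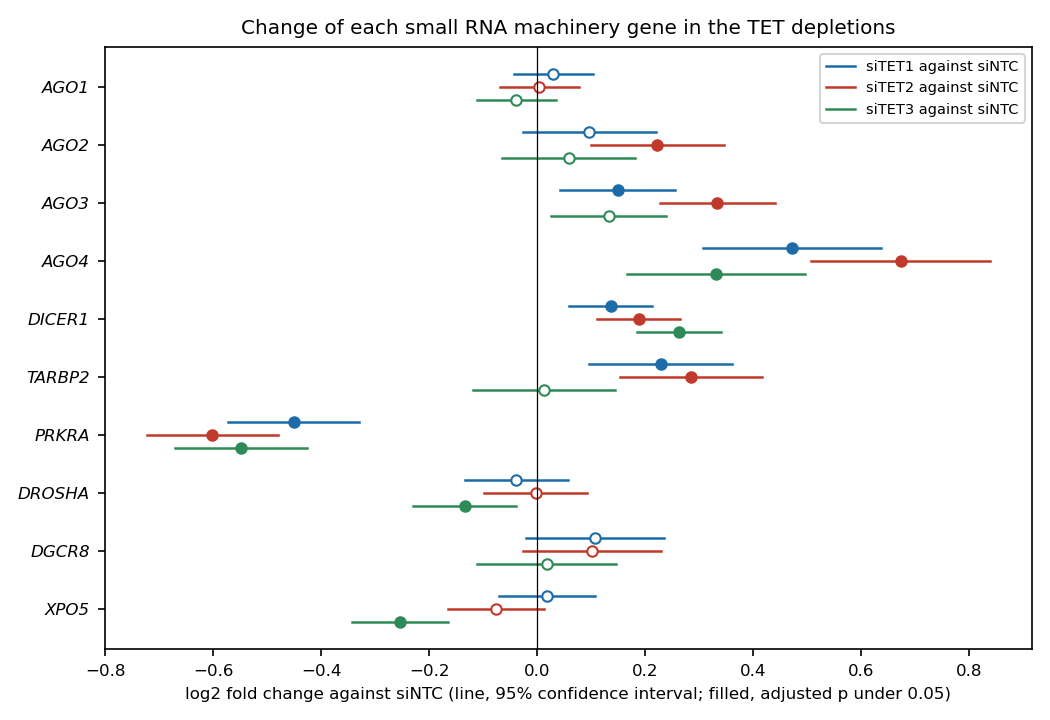
Change against siNTC on the log2 scale (horizontal axis) for each of the 10 machinery genes (rows) in siTET1, siTET2 and siTET3, with 95% confidence intervals (lines) and filled points for an adjusted p under 0.05. AGO4 reached 0.67 in siTET2 and PRKRA -0.60, while the intervals of AGO1 spanned 0 in all 3 depletions.

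DICER1, the ribonuclease that produces the mature duplex, rose in every depletion. It was at 11.49 and 11.54 in siTET1, 11.57 and 11.56 in siTET2, and 11.65 and 11.63 in siTET3, against 11.35 and 11.40 in siNTC. The order of the groups differed from that of the Argonautes, with siTET3 highest. DICER1 rose by 0.26 ± 0.036 in siTET3 (adjusted p = 6.81e-05), 0.19 ± 0.036 in siTET2 (adjusted p = 0.000956) and 0.14 ± 0.036 in siTET1 (adjusted p = 0.00931). The siTET1 call was lost without siTET1 replicate 2 (0.11, adjusted p = 0.103) or siNTC replicate 1 (0.11, adjusted p = 0.0646), without the intensity trend in the fit (0.14, adjusted p = 0.0923), and with the neighbours' median subtracted (0.07 ± 0.041, adjusted p = 0.262). Its 20 neighbours on chromosome 14 had medians of 0.04, 0.02 and 0.11 in siTET1, siTET2 and siTET3, and 0.07, 0.14 and 0.16 remained for DICER1 after subtraction. Of these neighbours, 5, 5 and 4 were called higher in siTET1, siTET2 and siTET3 and 0 lower in each. In size, 7, 7 and 5 of them changed by more than DICER1.

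TARBP2 and PRKRA are related proteins with double-stranded RNA-binding domains, each of which can pair with DICER1, and their transcripts moved in opposite directions. TARBP2 was at 8.64 and 8.75 in siTET1, 8.80 and 8.71 in siTET2, and 8.50 and 8.46 in siTET3, against 8.49 and 8.44 in siNTC. The siTET1 and siTET2 arrays were above all siTET3 and siNTC arrays, and siTET3 overlapped siNTC. TARBP2 rose in siTET2 (0.28 ± 0.061, adjusted p = 0.00231) and in siTET1 (0.23 ± 0.061, adjusted p = 0.0102), and its change in siTET3 was 0.01 ± 0.061 (95% confidence interval -0.12 to 0.14, adjusted p = 0.896). The siTET1 call was lost without siTET1 replicate 2 (0.17, adjusted p = 0.119) or siNTC replicate 2 (0.20, adjusted p = 0.0602).

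PRKRA, also called PACT, is in addition an activator of the antiviral kinase EIF2AK2 (PKR). It was at 9.91 and 10.06 in siTET1, 9.79 and 9.87 in siTET2, and 9.84 and 9.92 in siTET3, against 10.40 and 10.46 in siNTC. All 6 depletion arrays lay below both siNTC arrays, with a gap wider than the spread of either set. PRKRA fell most in siTET2 (-0.60 ± 0.056, adjusted p = 2.56e-06), where 65.9% of the siNTC intensity remained, with 95% limits of 60.6% and 71.7%. It fell to 68.4% in siTET3 (-0.55 ± 0.056, adjusted p = 5.95e-06) and to 73.1% in siTET1 (-0.45 ± 0.056, adjusted p = 3.51e-05). The 3 calls held under all 16 other fits.

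The genes around PRKRA on chromosome 2 were lower as well. In the mean of the 3 depletions 11 of its 20 tested neighbours fell and 0 rose, and their median log2 change was -0.14 in siTET1, -0.23 in siTET2 and -0.18 in siTET3. The next tested gene on one side, FKBP7, which encodes a prolyl isomerase of the endoplasmic reticulum, fell by more than PRKRA (-0.83, -0.99 and -1.16 in siTET1, siTET2 and siTET3), and OSBPL6, a lipid-binding protein gene on the other side, was at -0.39, -0.60 and -0.75. With the neighbours' median subtracted on each array PRKRA still fell, by 0.35, 0.38 and 0.38 in siTET1, siTET2 and siTET3 (adjusted p = 0.000349, 0.000157 and 0.000174). The part of the neighbourhood in the change of PRKRA was not tested beyond this subtraction.

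The promoter window of PRKRA is shown as that of the one machinery gene that fell in every depletion, again from RefSeq with ACGTG and the GC box in capitals.
PRKRA (chr2:178451126-178451425, - strand): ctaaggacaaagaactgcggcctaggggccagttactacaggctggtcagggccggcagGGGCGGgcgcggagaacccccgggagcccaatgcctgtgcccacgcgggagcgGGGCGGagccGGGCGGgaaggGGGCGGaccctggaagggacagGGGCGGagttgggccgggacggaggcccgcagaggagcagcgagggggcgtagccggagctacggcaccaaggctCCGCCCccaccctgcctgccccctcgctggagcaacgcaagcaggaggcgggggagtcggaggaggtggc
It held 6 GC boxes, with first bases at -191, -138, -128, -117, -95 and -20, no ACGTG and 26 CpG. Among the 9 machinery genes with a window in the table, which lacked AGO2, the number of GC boxes ran from 0 in AGO4 to 6 in PRKRA, and ACGTG occurred only in AGO4.

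**Figure D3:**
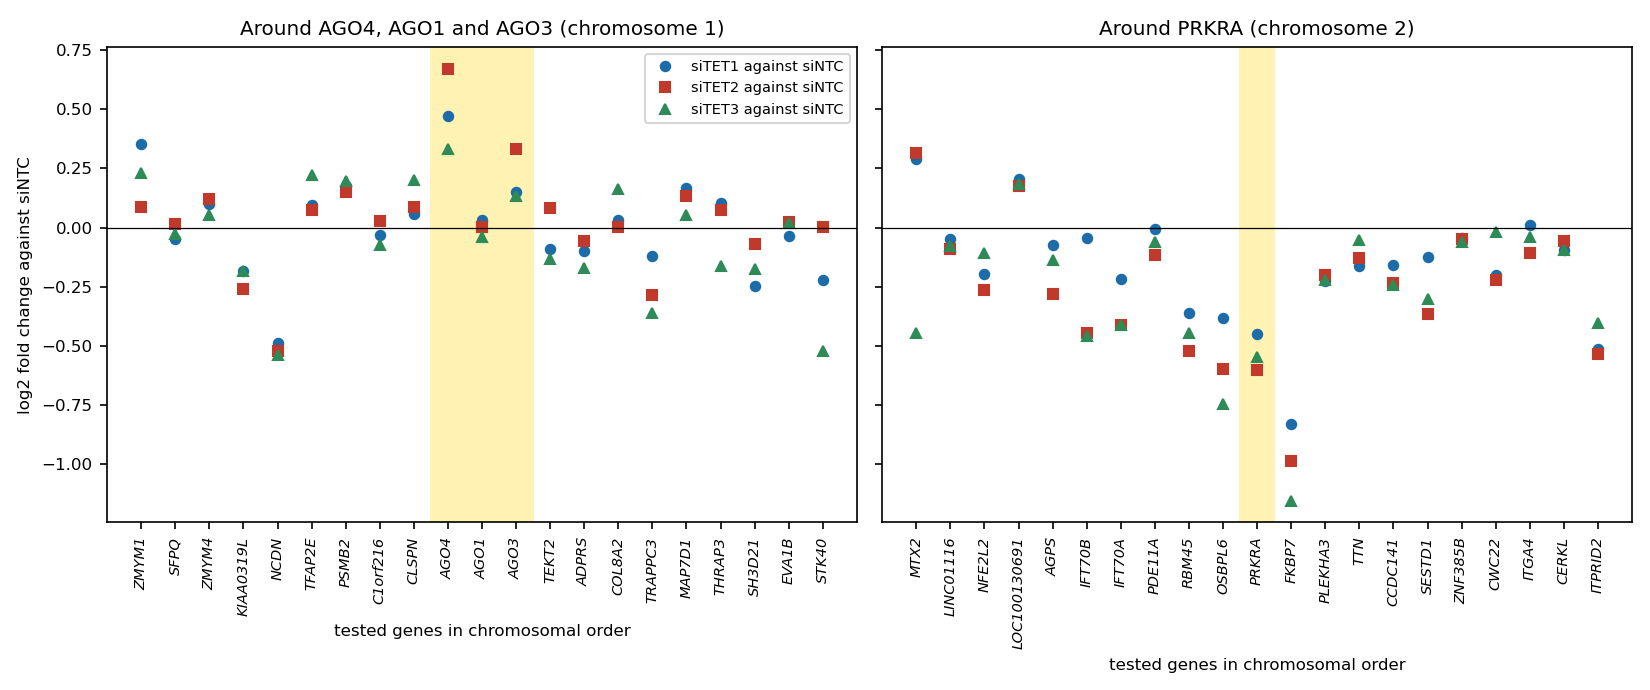
Log2 fold change against siNTC (vertical axis) of the tested genes around AGO4, AGO1 and AGO3 on chromosome 1 (left) and around PRKRA on chromosome 2 (right), in chromosomal order, for siTET1, siTET2 and siTET3 (symbols; machinery genes shaded). AGO4 stood above its neighbours in siTET2 at 0.67, while PRKRA lay among lower neighbours, with FKBP7 at -0.83 to -1.16.

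The Microprocessor showed less. DROSHA was at 10.41 and 10.38 in siTET1, 10.43 and 10.43 in siTET2, and 10.35 and 10.25 in siTET3, against 10.46 and 10.40 in siNTC. Only in siTET3 did both arrays lie below both siNTC arrays. DROSHA fell in siTET3 (-0.13 ± 0.044, adjusted p = 0.0301), and was at -0.04 ± 0.044 in siTET1 and -0.002 ± 0.044 in siTET2. The siTET3 call was lost in 8 of 16 other fits, among them those without siTET3 replicate 2 (-0.085, adjusted p = 0.183), siNTC replicate 1 (-0.11, adjusted p = 0.153) or either siTET2 array (-0.13, adjusted p = 0.0524 and 0.0525), and with each array centred on the median of genes above background (-0.03 ± 0.052, adjusted p = 0.642). DROSHA lies among lower genes on chromosome 5, whose medians were -0.11, -0.21 and -0.13 in siTET1, siTET2 and siTET3. With these subtracted its values were 0.08, 0.19 and -0.01, and the siTET2 value then passed the test as an increase (adjusted p = 0.00425).

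DGCR8 was at 8.51 and 8.51 in siTET1, 8.54 and 8.46 in siTET2, and 8.38 and 8.46 in siTET3, against 8.41 and 8.39 in siNTC. The siTET1 and siTET2 arrays were all above the siNTC arrays, yet none of the changes passed the test. They were 0.11 ± 0.059 in siTET1 (95% confidence interval -0.02 to 0.24), 0.10 ± 0.059 in siTET2 (-0.03 to 0.23) and 0.02 ± 0.059 in siTET3 (-0.11 to 0.15), with adjusted p of 0.193, 0.215 and 0.85.

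XPO5, the exporter of the hairpins, fell in siTET3, while the siTET1 and siTET2 values did not pass the test. It was at 10.76 and 10.79 in siTET1, 10.68 and 10.68 in siTET2, and 10.46 and 10.55 in siTET3, against 10.77 and 10.74 in siNTC. The siTET3 arrays lay below all 6 others. The change was -0.25 ± 0.041 in siTET3 (adjusted p = 0.000286), -0.08 ± 0.041 in siTET2 (adjusted p = 0.181) and 0.02 ± 0.041 in siTET1 (adjusted p = 0.779). The siTET3 call held under all 16 other fits. Centring of each array on the median of genes above background, which moved the median of all genes in siTET3 by 0.10, left it at -0.15 ± 0.038 (adjusted p = 0.00564), and subtraction of the neighbours gave -0.32 ± 0.042. In siTET2 the same subtraction gave -0.13 ± 0.042, which passed the test (adjusted p = 0.0311).

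Whether the depletions differed from each other was tested directly. Between siTET2 and siTET1, 1 of the 10 genes was called (6.46% of all genes, 2.33% higher and 4.13% lower), which was AGO3, higher in siTET2 by 0.18 ± 0.049 (adjusted p = 0.0441). Between siTET3 and siTET1, 3 were called (13.8% of all genes, 3.82% higher and 9.94% lower). XPO5 was lower in siTET3 by a log2 change of -0.27 ± 0.041 (adjusted p = 0.000884), TARBP2 was lower (-0.22 ± 0.061, adjusted p = 0.0329) and DICER1 was higher (0.13 ± 0.036, adjusted p = 0.033). Between siTET3 and siTET2, 4 were called, all lower in siTET3 (12.2% of all genes called, 4.94% higher and 7.24% lower). These were AGO4 (-0.34 ± 0.076, adjusted p = 0.0105), TARBP2 (-0.27 ± 0.061, adjusted p = 0.0107), XPO5 (-0.18 ± 0.041, adjusted p = 0.0127) and AGO3 (-0.20 ± 0.049, adjusted p = 0.0176). For PRKRA no difference between depletions passed the test, with 95% confidence intervals of -0.27 to -0.03 for siTET2 against siTET1, -0.22 to 0.02 for siTET3 against siTET1 and -0.07 to 0.17 for siTET3 against siTET2 (adjusted p = 0.15, 0.295 and 0.628). In all 8 calls the 2 pairs of arrays did not overlap, which held for 51% of all genes between siTET2 and siTET1, 54.1% between siTET3 and siTET1 and 52.8% between siTET3 and siTET2. The siNTC arrays do not enter these differences other than through the estimate of the spread. Of the 8 calls, the XPO5 difference between siTET3 and siTET1 held under all 16 other fits, and the others were lost under 2 to 11 of them.

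Across the 8 arrays AGO3 tracked AGO4 (r = 0.944) and AGO2 (r = 0.917), AGO1 tracked XPO5 (r = 0.869), and PRKRA ran against DICER1 (r = -0.860) and AGO4 (r = -0.824). These coefficients describe 8 arrays in 4 groups that share 2 siNTC arrays and carry no test. The same holds for the 2 closest profiles of each machinery gene, which follow. They were picked as the highest coefficients among all genes tested, and over 8 arrays such selection alone can give high values. Of these, UNC5A and SLITRK4 had mean log2 levels of 5.655 and 5.459, near background. Among all genes tested, the profiles most like AGO4 were those of PLEKHO1 (r = 0.999) and PRELID2 (r = 0.991), and most like PRKRA those of the histone variant gene H2AX (r = 0.995) and COQ8A (r = 0.991). IP6K1 (r = 0.996) and TRIM28 (r = 0.988) came closest to AGO1, UNC5A (r = 0.994) and TAS2R19 (r = 0.975) to AGO2, DLEC1 (r = 0.980) and PLEKHA2 (r = 0.977) to AGO3, and MIER1 (r = 0.989) and ANKRD12 (r = 0.988) to DICER1. For the remaining genes, SETD1A (r = 0.973) and PRR14 (r = 0.953) came closest to DROSHA, ATP5F1C (r = 0.992) and ERF (r = 0.961) to DGCR8, SLITRK4 (r = 0.982) and PPP1R12B (r = 0.979) to TARBP2, and NARS1 (r = 0.995) and DPYSL3 (r = 0.991) to XPO5.

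Other genes of the small RNA pathway were followed in 7 lists, in the mean of the 3 depletions, where 16.5% of all genes rose and 24.2% fell. Of 17 measured nuclear factors that bind primary microRNAs, the cap or the Microprocessor, 7 rose and 7 fell, with a median of -0.04. The largest changes were in the primary microRNA-binding proteins HNRNPA2B1 (0.89 ± 0.029, adjusted p = 2.20e-10) and HNRNPA1 (0.71 ± 0.068, adjusted p = 2.18e-06) and in the cap-binding subunit NCBP2 (0.77 ± 0.042, adjusted p = 1.69e-08). The neighbours of HNRNPA2B1 and NCBP2 were higher as well, with medians of 0.20 and 0.21, and 0.68 and 0.55 remained after subtraction. HNRNPA1 has processed copies in the genome that could share its probes. The Microprocessor helicases differed in direction, as DDX5 fell (-0.20 ± 0.025, adjusted p = 2.31e-05) and DDX17 rose (0.14 ± 0.029, adjusted p = 0.00172).

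Among the 4 PIWI proteins, relatives of the Argonautes that act with piRNAs in the germ line, PIWIL1 was at 6.17 and 5.98 in siTET1, 5.80 and 5.93 in siTET2, and 6.20 and 6.19 in siTET3, against 5.19 and 5.37 in siNTC. It was below background on 1 siNTC array. With that array raised to background, the depletions together were at least 1.67-fold higher than siNTC. The test used the values as deposited, which gave a mean change of 0.76 ± 0.087 (limma adjusted p = 1.16e-05). PIWIL2 and PIWIL3 were below background on all 8 arrays.

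Downstream of the Argonautes, 2 of 11 GW182 proteins and silencing adaptors rose and 4 fell, with a median of -0.11. The 3 GW182 proteins, which bind Argonautes and recruit deadenylases, differed in their calls: TNRC6A rose (0.21 ± 0.031, adjusted p = 0.000126), and TNRC6B (0.03 ± 0.039, adjusted p = 0.641) and TNRC6C (-0.06 ± 0.045, adjusted p = 0.343) did not pass the test. LIMD1, an adaptor between Argonautes and GW182 proteins (-0.32 ± 0.059, adjusted p = 0.0007), the helicase MOV10 (-0.31 ± 0.048, adjusted p = 0.000185) and the decapping activator PATL1 (-0.30 ± 0.044, adjusted p = 0.000115) fell. Of 24 genes of deadenylation and decapping, 2 rose and 12 fell, with a median of -0.10. The exonuclease XRN1, which degrades decapped transcripts, rose (0.58 ± 0.048, adjusted p = 6.39e-07), and the CCR4-NOT subunits CNOT3 (-0.52 ± 0.050, adjusted p = 2.39e-06) and CNOT9 (-0.47 ± 0.035, adjusted p = 2.74e-07) fell, of which CNOT9 is a docking site for GW182 proteins.

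Of 19 chaperones and partners of Argonautes, 7 rose and 3 fell, with a median of 0.05. P4HA1, a collagen prolyl hydroxylase subunit that also modifies AGO2, rose (0.59 ± 0.052, adjusted p = 1.08e-06), and most in siTET2. It was at 9.02 and 8.98 in siTET1, 9.60 and 9.63 in siTET2, and 9.03 and 9.18 in siTET3, against 8.73 and 8.58 in siNTC. The HSP90 co-chaperone PTGES3 (0.48 ± 0.025, adjusted p = 1.28e-08) and the import receptor IPO8 (0.40 ± 0.037, adjusted p = 1.91e-06) rose too. Among 11 genes of microRNA tailing and turnover, 2 rose and 4 fell, with a median of 0.03. The decreases included ZSWIM8, the ubiquitin ligase receptor of target-directed microRNA decay (-0.43 ± 0.084, adjusted p = 0.00116), the nuclear exonuclease XRN2 (-0.29 ± 0.036, adjusted p = 2.96e-05) and DIS3L2, which degrades uridylated precursors (-0.22 ± 0.050, adjusted p = 0.00269). LIN28A, the blocker of let-7 maturation that marks pluripotent cells, rose in siTET1 (0.245 ± 0.042, adjusted p = 0.000451), and in the mean it was at 0.09 ± 0.034 (adjusted p = 0.0651) and LIN28B at -0.06 ± 0.039 (adjusted p = 0.254).

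**Figure D4:**
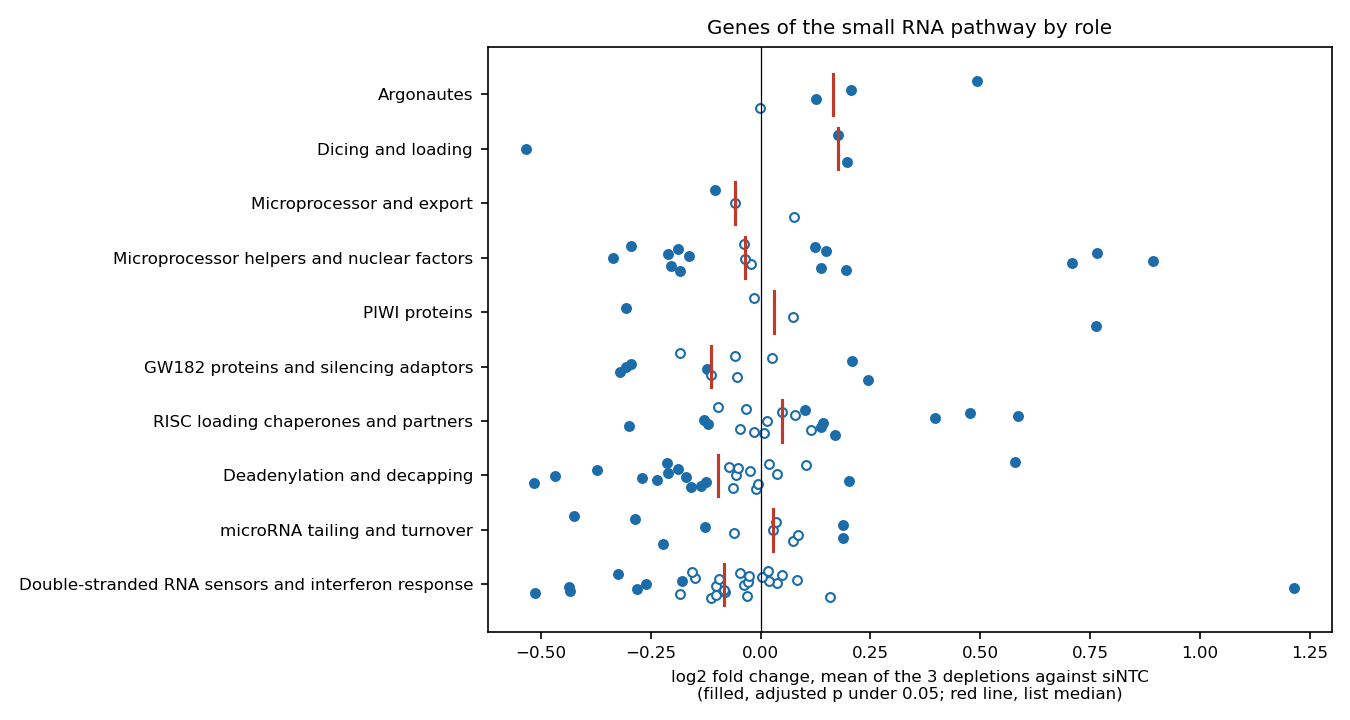
Log2 fold change of the mean of the 3 depletions against siNTC (horizontal axis) of each measured gene (points; filled, adjusted p under 0.05) in lists of the small RNA pathway (rows; red lines, list medians). List medians lay between -0.11 and 0.18, and IFITM1 stood apart at 1.21.

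Because every culture received duplex RNA, sensors of double-stranded RNA and interferon-induced genes were examined last. Of 29 measured genes, 11 had a mean above background, and the induced genes MX1, OAS1, IFIT2 and IFNB1 were below it on all 8 arrays. The induced gene ISG15 was above it on all 8, with values from 5.41 to 6.04. Its change in the mean of the 3 depletions was 0.02 ± 0.133 (limma adjusted p = 0.931). The averaged depletions had 1 increase and 7 decreases among the 29, with a median of -0.08, where 16.5% of all genes rose and 24.2% fell. Of the decreases, IFIT3 was below background on all 8 arrays and IFIT1 was above it on only 1. EIF2AK2, the kinase that PRKRA activates, was at 10.22 and 10.24 in siTET1, 10.29 and 10.28 in siTET2, and 10.15 and 10.12 in siTET3, against 10.25 and 10.24 in siNTC, and its mean change of -0.03 ± 0.032 did not pass the test (adjusted p = 0.506), although its siTET3 value did (-0.11 ± 0.039, adjusted p = 0.041). The endosomal sensor TLR3 did not pass it either (-0.05 ± 0.076, adjusted p = 0.664). The cytosolic sensor RIGI fell (-0.32 ± 0.068, adjusted p = 0.00175), as did the interferon-induced genes IFI6 (-0.51 ± 0.083, adjusted p = 0.00023) and IFITM3 (-0.44 ± 0.047, adjusted p = 6.75e-06). The depletions differed for IFITM3, which fell in siTET1 (-0.73 ± 0.058, adjusted p = 7.19e-07) and siTET3 (-0.43 ± 0.058, adjusted p = 5.81e-05) but was at -0.14 ± 0.058 in siTET2 (adjusted p = 0.0716), with siTET2 above siTET1 by 0.59 ± 0.058 (adjusted p = 8.59e-05). IFITM1, a membrane protein gene of the same family as IFITM3, was the single increase (1.21 ± 0.023, adjusted p = 2.72e-12). It was at 12.93 and 12.96 in siTET1, 13.18 and 13.18 in siTET2, and 12.88 and 12.88 in siTET3, against 11.78 and 11.80 in siNTC, so that its groups did not overlap.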

How the data were processed

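Total RNA (250 ng per sample, per the labels) was labelled as biotinylated cDNA for Affymetrix Human Gene 1.0 ST arrays. The deposited values are log2 intensities per transcript cluster, normalized between arrays by the authors. The submitters' processing notes name Partek. How background was corrected and probes were summarized is not given in the sources read here. Of 33297 clusters, 19460 carried 1 gene symbol, 1754 several and 12083 none. Only the first were used, and a gene with several (769 genes) took the cluster with the highest mean, leaving 18417 genes. All 8 arrays entered 1 linear model with a term per group (lmFit and eBayes, trend = TRUE, of limma 3.58.1 in R 4.3.3), which had 4 residual degrees of freedom and 8.55 from the prior. Tests were two-sided, with Benjamini-Hochberg adjustment over all genes, and called genes had an adjusted p under 0.05. Errors are standard errors of the fit.

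The genes, lists and tests were chosen with earlier results of these data known. All 10 machinery genes were named in every comparison, together with the TETs, up to 3 genes per pathway list with the largest changes past the test in the mean of the depletions, and the 2 closest profiles of each machinery gene. FKBP7, OSBPL6, CLSPN and TEKT2 were named as adjacent genes. DDX5, DDX17, the GW182 proteins, LIN28A, LIN28B, EIF2AK2, TLR3, RIGI, ISG15, the cell type markers and the undetected interferon-induced genes were named after their values were seen. The fit was tested on simulated data for siTET2 against siNTC over 18417 genes, 200 of them changed, with independent noise. It recovered 99% of 1.5-fold and 43% of 1.25-fold changes, with 16 and 11 false calls. The measured comparison called 6675 genes, so these rates do not carry over to it. Alternatives were quantile normalization, array centring, a fit of only the arrays compared, eBayes without the trend, restriction to genes above background, averaging over clusters of the same gene, a replicate block, omission of each array, a stricter p, a fold threshold and, chosen after seeing the data, subtraction of the median deviation of the 10 tested genes on each side. Promoter windows came from RefSeq (GRCh38.p14), in which 9 of the 10 genes matched. Plots used matplotlib 3.10.9 (Python 3.11.15). The number of arrays limits the precision.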

Additional observations from a re-analysis of the deposited data

Results flagged for a closer look

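The changes of 5 machinery genes differed between depletions by a test of the difference itself (limma, adjusted over all genes). AGO3 was higher in siTET2 than in siTET1 by 0.18 on the log2 scale and lower in siTET3 than in siTET2 (-0.20). AGO4 was lower in siTET3 than in siTET2 (-0.34). XPO5 was lower in siTET3 than in siTET1 (-0.27) and than in siTET2 (-0.18), and TARBP2 likewise (-0.22 and -0.27). DICER1 was higher in siTET3 than in siTET1 (0.13). In each case both arrays of one group lay beyond both of the other, as for 51% to 54.1% of all genes in these comparisons. Of all genes, 6.46% were called between siTET2 and siTET1, 13.8% between siTET3 and siTET1 and 12.2% between siTET3 and siTET2. Apart from XPO5 between siTET3 and siTET1, each of these differences was lost under some of the other fits.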

How the results depend on the processing

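The 70 values of the 10 genes in 7 comparisons were each recomputed under 16 other fits, and 16 of 31 calls held in all of them: AGO4 and PRKRA in each comparison with siNTC, DICER1 in those other than siTET1, AGO3 in siTET2 and the mean of the depletions, TARBP2 in siTET2, and XPO5 in siTET3 against siNTC and against siTET1. Counts of called genes were 5, 6, 5 and 7 in siTET1, siTET2, siTET3 and their mean against siNTC. With a 1.5-fold threshold they were 0, 2, 0 and 0, and 0 in each comparison between depletions. With an adjusted p under 0.01 they were 3 in siTET1 and 4 in the mean, and 0, 1 and 0 for siTET2 against siTET1, siTET3 against siTET1 and siTET3 against siTET2, which had 1, 3 and 4. Without an intensity trend they were 3 in siTET1 and 0, 1 and 1 between depletions in the same order. A fit of only the arrays compared gave 1 for siTET3 against siTET1, and subtraction of the neighbours' shift, an alternative chosen after seeing the data, gave 0 for siTET2 against siTET1 and 1 for siTET3 against siTET1. With 1 array left out, when a lone array is assumed to vary like the other groups, counts ranged from 2 to 5 in siTET1, 5 to 6 in siTET2, 4 to 6 in siTET3, 4 to 7 in the mean, 0 to 1 for siTET2 against siTET1, 1 to 3 for siTET3 against siTET1 and 1 to 5 for siTET3 against siTET2. Counts fell past 1.5 times without siTET1 replicate 2 (2) or siNTC replicate 2 (3) in siTET1, without siNTC replicate 2 in the mean (4), without any siTET1 or siTET2 array for siTET2 against siTET1 (0), without any siTET1 or siTET2 array or siTET3 replicate 1 for siTET3 against siTET1 (1), and without siTET2 replicate 1 (1), siTET2 replicate 2 (1) or siTET3 replicate 1 (2) for siTET3 against siTET2. In the mean, the AGO2 call (0.13 ± 0.046, adjusted p = 0.0452) was lost in 9 fits and the XPO5 call (-0.10 ± 0.034, adjusted p = 0.0247) in 7. Over all genes tested, the 6320 calls in siTET1 and 7490 in the mean became 4587 and 5751 at an adjusted p under 0.01. Without an intensity trend they became 5708 and 7107. The calls over all genes also fell in siTET1 when a siTET1 or siNTC array was left out, and in the mean when a siNTC array was.

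The replicate numbers were not shown to pair the samples, since deviations of same-numbered arrays correlated at -0.053 to 0.251. With the replicate number as a block the counts were 5, 6, 5 and 6 against siNTC, the AGO2 call in the mean of the depletions being lost (adjusted p = 0.05), and the block changed no other call of the 10 genes.

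Values near 0 changed sign. With array centring DROSHA in siTET2 was at 0.043, AGO1 at 0.063 in siTET3 and 0.051 in the mean, AGO1 at 0.008, 0.021 and 0.013 in siTET2 against siTET1, siTET3 against siTET1 and siTET3 against siTET2, DGCR8 at 0.028 in siTET2 against siTET1, and AGO2 and AGO3 at 0.052 and 0.073 in siTET3 against siTET1. Quantile normalization gave AGO1 0.011 in the mean and 0.003 in siTET2 against siTET1. Subtraction of the neighbours' shift gave DROSHA 0.08, 0.192 and 0.089 in siTET1, siTET2 and the mean, XPO5 -0.008 in siTET1, AGO1 -0.045 in siTET2 and 0.027 in siTET3 against siTET2, DGCR8 0.009 in siTET2 against siTET1 and AGO3 0.025 in siTET3 against siTET1. Of these, DROSHA in siTET2 passed the test. The cause was not tested. With 1 array left out, ranges spanned 0 for AGO1 (-0.004 to 0.013) and DROSHA (-0.03 to 0.025) in siTET2, for AGO2 (-0.016 to 0.133), DGCR8 (-0.026 to 0.061) and TARBP2 (-0.013 to 0.038) in siTET3, for AGO1 (-0.01 to 0.007) in the mean, for DGCR8 (-0.045 to 0.034) in siTET2 against siTET1, and for AGO2 (-0.112 to 0.036) and AGO3 (-0.06 to 0.026) in siTET3 against siTET1.

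Array centring moved the median of all genes by 0.10 in siTET3, and the share of lower calls was then 49.9% in siTET2, 38.9% in siTET3 and 47.3% in the mean, against 60.1%, 61.9% and 59.4% as deposited. Between depletions it was 42.6%, 32.2% and 34.5%, against 63.9%, 72.2% and 59.4%, and quantile normalization gave 61.5% and 48.7% for the 2 comparisons with siTET3. In siTET3, AGO2 (0.16) and AGO3 (0.234) passed the test once centred. Over all genes, siTET2 against siTET1 had 1189 calls, 2370 with only its arrays, 223 without a trend, 412 at an adjusted p under 0.01 and 248 to 333 with 1 of its arrays left out. For siTET3 against siTET1 and against siTET2, the 2534 and 2244 calls became 1287 and 1018 without a trend, 1161 and 1149 at an adjusted p under 0.01, and as few as 1008 and 817 with 1 array left out. A 1.5-fold threshold left 944, 1135, 1089 and 954 genes against siNTC and 67, 93 and 95 between depletions.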
